A study of Homo sapiens with 9 samples.

Results

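Annexins and S100 proteins are calcium-binding proteins that meet at cell membranes, and 10 of their genes were followed here in MDA-MB-231 cells: ANXA1, ANXA2, ANXA3, ANXA5, ANXA6, S100A2, S100A6, S100A10, S100A11 and S100A16. They were picked by gene name, with no threshold on a measured value but with earlier results of these data known, out of 27615 genes listed for at least 1 library. MDA-MB-231 is an established human line of triple-negative breast cancer. RNA sequencing compared 3 libraries of cells given the vehicle DMSO, 3 of cells given rimonabant, an antagonist of the cannabinoid receptor CB1 whose libraries carry the prefix SR, and 3 of cells given TXX-1-10, a rimonabant derivative found in a screen for compounds that lower the protein HPIP (PBXIP1). The dose and duration of these treatments are not given in the sources used here, so the compounds are set side by side as labelled and not at a stated matched dose. All groups are the same cell line, and nothing says that the replicates were separate cultures, so each p-value measures only the spread between these samples.

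Annexins bind acidic phospholipids in the presence of calcium through a conserved core, and they take part in membrane trafficking, membrane repair and the anchoring of proteins at the cell surface. S100 proteins are small EF-hand proteins that form dimers and bind target proteins, among them the N-terminal tails of annexins. The best known complex joins ANXA2 to S100A10 in a heterotetramer that holds plasminogen and its activators at the surface, and S100A11 binds ANXA1 in a similar way. High levels of several of these genes are typical of mesenchymal breast cancer lines.

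The library totals behind the deposited values ran from 17078370 to 19277808 counts. All lists follow 1 order, abundant genes first, and each stops at its own point, so a gene missing from a list is not a gene at 0. Of the 10 genes, 9 were listed for all 9 libraries, and together these took 0.350% to 0.440% of a library's total. S100A2 was listed for 7 libraries and was missing for vehicle replicate 2 and rimonabant replicate 1. Values are given as FPKM, fragments scaled by gene length and by the library's total, which allows levels of different genes to be compared. The line's own markers VIM, CD44, EGFR and AXL were listed in all 9 libraries, with 5040 counts or more each. Among markers taken as low or absent in this line, ESR1 had at most 8 counts, PGR at most 13 and CDH1 0 in the 4 libraries that listed each of them. ERBB2, however, reached 1329 to 1754 counts, and EPCAM had 208 to 246 in the 7 libraries that listed it. Of the leukocyte, fibroblast and endothelial markers, COL1A1 was the highest with 56 to 135 counts, and no keratinocyte marker was listed.

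A pair of libraries stood apart from their replicates before any comparison. In rimonabant replicate 1 and TXX-1-10 replicate 3, longer genes had lower values than in the remaining replicates of the group (Spearman's rho between gene length and deviation -0.693 and -0.692 over 4237 genes). Genes shorter than 1000 bases had a median deviation of 0.292 and 0.288 log2 units from the mean of those replicates, and genes longer than 8000 bases one of -0.144 and -0.138. The 4 S100 genes listed for all libraries are 680 to 1701 bases long in the files and lay 0.233 to 0.310 log2 units above that mean in both libraries. The annexins are 3034 to 8824 bases long and lay above it as well, by 0.027 (ANXA3 in rimonabant replicate 1) to 0.260 (ANXA3 in TXX-1-10 replicate 3). The part of this departure in the results below was not tested, and values without both libraries are given where leaving them out changed a call.

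**Figure D1:**
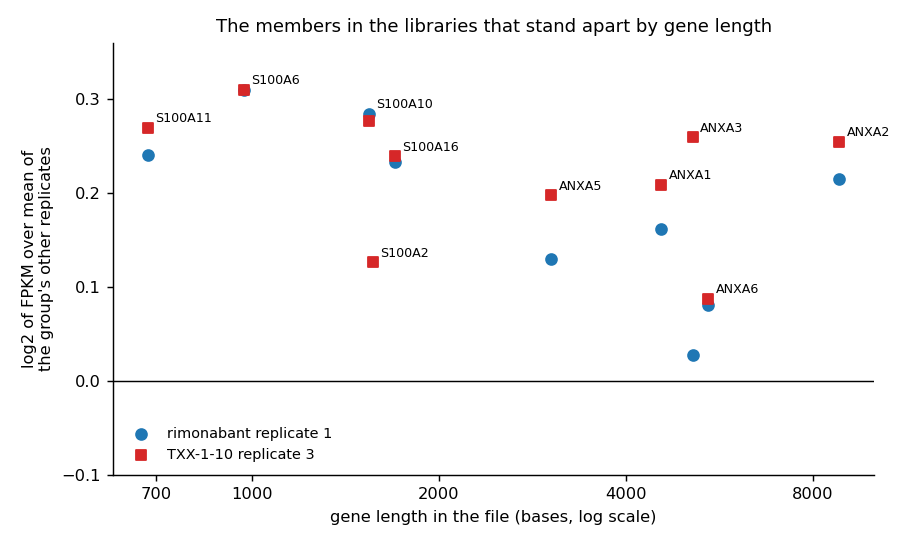
Log2 of each gene's FPKM over the mean of its group's other replicates, against gene length in bases on a log scale, for rimonabant replicate 1 (circles) and TXX-1-10 replicate 3 (squares). Every point lies above 0, and S100A6 was the highest in both libraries at 0.310 and 0.309.

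In vehicle-treated cells, S100A6 was the most abundant of the 10 at 633.9 ± 26.1 FPKM (SD, n = 3) and ranked 35th of 4237 genes listed in all libraries. S100A11 followed at 361.4 ± 19.5 FPKM. ANXA5 (190.0 ± 2.96 FPKM) and ANXA2 (187.9 ± 3.33 FPKM) overlapped between libraries and could not be ordered, and S100A10 came next at 168.1 ± 9.15 FPKM. ANXA1 (99.1 ± 2.07 FPKM) and S100A16 (95.1 ± 2.37 FPKM) also overlapped. ANXA6 stood at 39.3 ± 0.850 FPKM, ANXA3 at 13.5 ± 0.798 FPKM and S100A2 at 4.43 ± 0.921 FPKM (n = 2), with no overlap between these 3 or with the genes above them. The plot of FPKM by library shows every value.

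**Figure D2:**
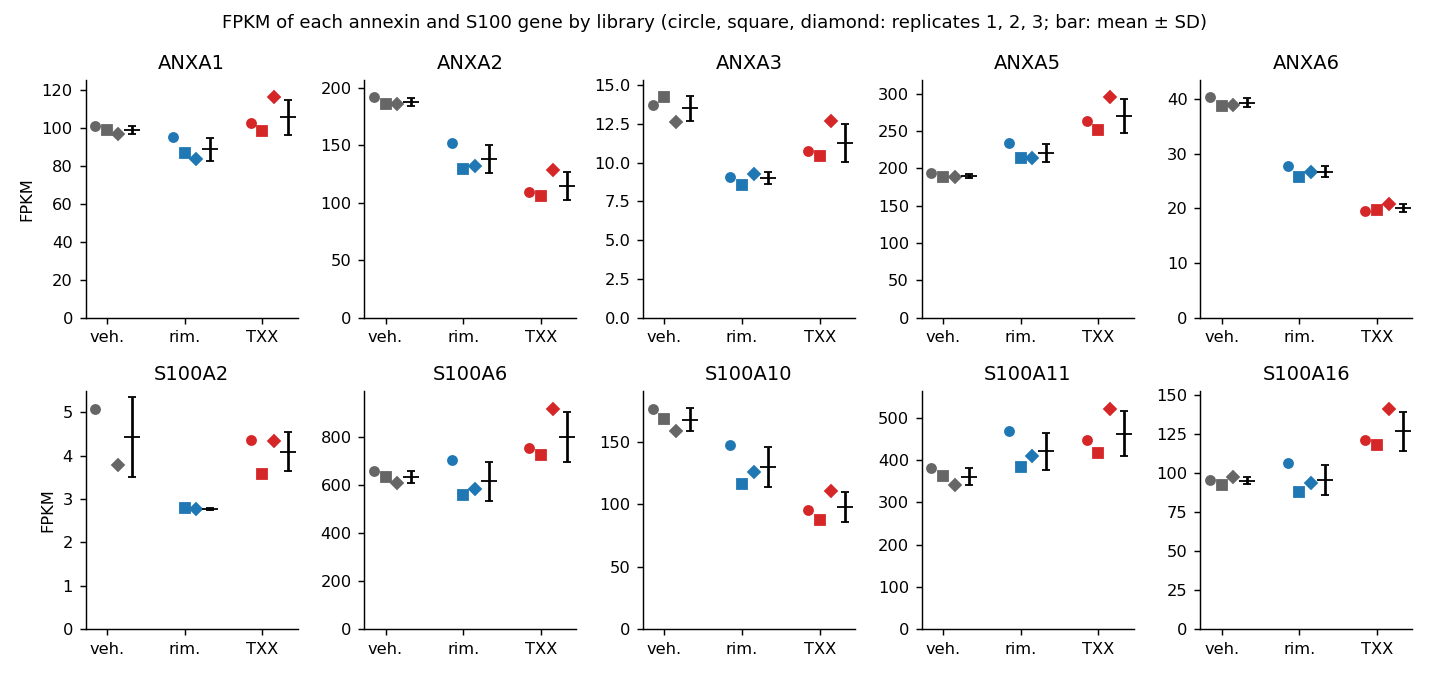
FPKM of each gene in every library, with circles, squares and diamonds for replicates 1, 2 and 3 of the vehicle, rimonabant (rim.) and TXX-1-10 (TXX) groups and bars for the mean ± SD. ANXA2, ANXA6 and S100A10 step down from vehicle to rimonabant to TXX-1-10 without overlap, and ANXA5 steps up.

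The first comparison asked which of these genes changed with TXX-1-10. ANXA6, ANXA2 and S100A10 were lower in TXX-1-10-treated cells, with ANXA6 at about 20 FPKM against 39 in vehicle, and ANXA5, S100A6, S100A11 and S100A16 were higher. ANXA3 was lower by a small margin and ANXA1 did not pass the test. By edgeR's quasi-likelihood test with Benjamini-Hochberg adjustment over 4236 genes, 4 of the 9 testable genes were higher and 4 lower at an adjusted p under 0.05, against 30.5% higher and 43.8% lower of all genes tested. None of the 9 passed the 2-fold threshold used in the study, which 11.8% of all genes did. The median log2 fold change was 0.09 over the 9 genes and -0.09 over all genes, and the median absolute change was 0.42 and 0.37, which describes the group and is no test. Scaling by TMM, which centres the typical gene, turned 1294 higher and 1857 lower calls over all genes into 1568 and 1570, and the 9 genes into 5 higher and 3 lower.

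ANXA6, the annexin with a duplicated core, which acts in endocytic and cholesterol trafficking, showed the largest change. Its level was 40.3, 38.7 and 39.0 FPKM in the vehicle libraries, 27.7, 25.8 and 26.6 with rimonabant and 19.6, 19.7 and 20.9 with TXX-1-10. The groups did not overlap, and every TXX-1-10 library was below every rimonabant library. The log2 fold change against vehicle was -0.97 (SE 0.05, adjusted p = 3.50e-08) with TXX-1-10 and -0.56 (SE 0.05, adjusted p = 1.52e-05) with rimonabant. TXX-1-10 was lower than rimonabant by a log2 fold change of -0.41 (adjusted p = 3.39e-05). All 3 calls held in each of the 22 alternative settings, with the change under TXX-1-10 between -1.002 and -0.872. In bulk RNA, fewer cells that express a gene and less of its RNA per cell cannot be told apart.

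ANXA2, the membrane-binding subunit of the tetramer with S100A10, lies on chr15:60347134-60402883, minus strand (GRCh38, GENCODE 29). It measured 191.7, 186.0 and 186.0 FPKM in vehicle, 151.8, 129.6 and 132.1 with rimonabant and 109.4, 106.0 and 128.5 with TXX-1-10. The groups did not overlap, although TXX-1-10 replicate 3 came within about 1 FPKM of the lowest rimonabant library. Against vehicle it was lower by log2 fold changes of -0.71 (SE 0.09, adjusted p = 2.89e-05) with TXX-1-10 and -0.45 (SE 0.09, adjusted p = 0.00186) with rimonabant. The difference between the compounds was smaller, at -0.27 (95% interval -0.46 to -0.08, adjusted p = 0.0195), and it missed the threshold with TMM (adjusted p = 0.0556), in a fit on the 8 libraries without rimonabant replicate 1, which holds more genes (0.0521), with the vehicle libraries left out of the fit (0.0550) and without rimonabant replicate 1, TXX-1-10 replicate 1 or TXX-1-10 replicate 2.

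S100A10, also called p11, is the S100 protein that has lost calcium binding and is held in its active form, and it is encoded on chr1:151982915-151994390, minus strand. It measured 176.8, 168.9 and 158.6 FPKM in vehicle, 147.4, 116.1 and 125.8 with rimonabant and 95.5, 87.6 and 110.8 with TXX-1-10. As for ANXA2, the order was vehicle, rimonabant, TXX-1-10 with no overlap. The log2 fold change was -0.78 (SE 0.10, adjusted p = 5.72e-05) with TXX-1-10, -0.37 (SE 0.10, adjusted p = 0.0123) with rimonabant and -0.41 (95% interval -0.63 to -0.18, adjusted p = 0.00573) between the compounds. The rimonabant call was lost without vehicle replicate 1 (adjusted p = 0.0507).

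Both subunits of the tetramer therefore fell in the same libraries, and their counts can be compared within each library. S100A10 gave 16.1, 15.9 and 14.9 counts per 100 ANXA2 counts in vehicle, 17.0, 15.7 and 16.7 with rimonabant and 15.3, 14.4 and 15.1 with TXX-1-10. Both treated groups overlapped vehicle, whereas every TXX-1-10 library lay below every rimonabant library, the nearest values being 15.3 and 15.7. ANXA5 relative to ANXA2 behaved otherwise: it gave 34.7, 34.7 and 34.9 counts per 100 ANXA2 counts in vehicle, 53.0, 56.8 and 55.5 with rimonabant and 82.6, 81.7 and 79.0 with TXX-1-10. The 3 groups were well apart and the spread within each was small, also in the libraries that departed with gene length.

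**Figure D3:**
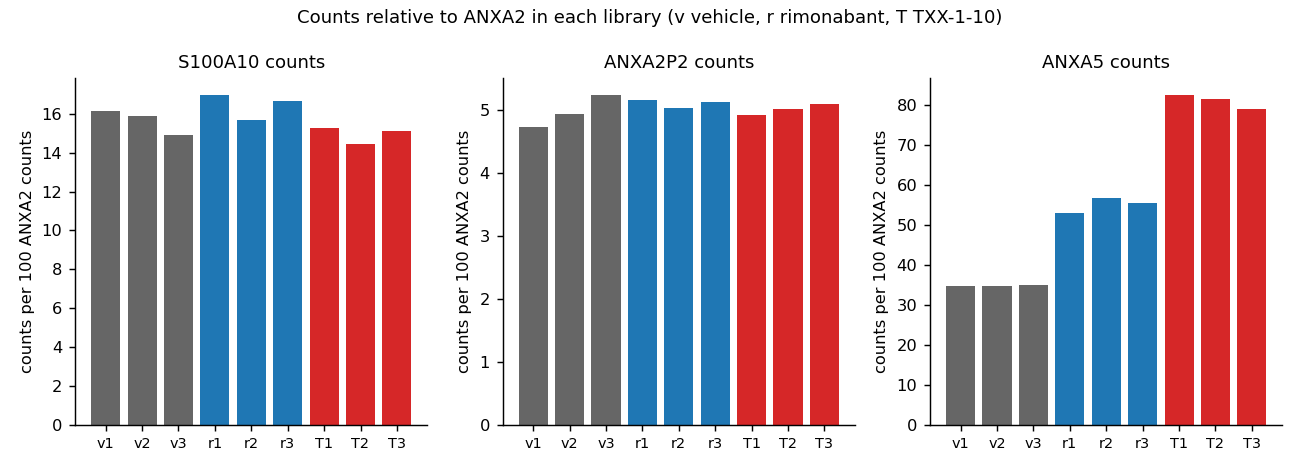
Counts of S100A10, of the pseudogene ANXA2P2 and of ANXA5 per 100 ANXA2 counts in each library (v vehicle, r rimonabant, T TXX-1-10). The first and second ratios stay between 14.4 and 17.0 and between 4.73 and 5.24, and the third rises from about 35 in vehicle to 79 or more with TXX-1-10.

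ANXA2 counts carry an uncertainty of their own, because a processed pseudogene holds a near-identical copy of its coding sequence. ANXA2P2 lies on chr9:33624274-33625293, and its 1020 bases align to the longest open reading frame of an ANXA2 transcript with 16 differences and no gap, an identity of 98.4%. The longest stretch without a difference is 221 bases. The 150-base window with the most differences, coding positions 71 to 220 counted from the first base of the start codon, is shown for both to let a reader see how few positions separate them, with the 6 differing bases in capitals.

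ANXA2: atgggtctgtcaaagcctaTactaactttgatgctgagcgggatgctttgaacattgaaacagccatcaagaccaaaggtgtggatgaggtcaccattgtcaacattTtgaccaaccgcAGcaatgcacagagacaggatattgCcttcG
ANXA2P2: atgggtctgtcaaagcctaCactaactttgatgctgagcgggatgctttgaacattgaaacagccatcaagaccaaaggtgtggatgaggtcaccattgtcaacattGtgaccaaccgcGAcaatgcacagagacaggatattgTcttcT

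Those differences are T90C, T178G, A190G, G191A, C215T and G220T, written with the ANXA2 base first. A read without such a base could come from either gene. ANXA2P2 was listed with 1368, 1396 and 1480 counts in vehicle, 1206, 1081 and 1107 with rimonabant and 916, 863 and 1061 with TXX-1-10. It changed by log2 -0.70 (adjusted p = 5.98e-05) with TXX-1-10 and -0.41 (adjusted p = 0.00465) with rimonabant, close to ANXA2. It amounted to 4.73 to 5.24 counts per 100 ANXA2 counts in every library, with overlap between the groups. How many of its reads came from ANXA2 was not tested. ANXA2, S100A6 and S100A11 also overlap genes on the opposite strand, which had at most 17, 53 and 4 counts, and whether the counting used strand is not given in the sources used here.

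ANXA5, which binds phosphatidylserine and is the usual probe of dying cells, was the 1 of the 5 annexins called higher with TXX-1-10 in the fit on all libraries. It measured 193.4, 187.7 and 189.0 FPKM in vehicle, 233.8, 214.2 and 213.3 with rimonabant and 262.8, 251.8 and 295.1 with TXX-1-10. No group overlapped another. Its log2 fold change was 0.51 (SE 0.07, adjusted p = 6.05e-05) with TXX-1-10 and 0.29 (95% interval 0.14 to 0.44, adjusted p = 0.00332) between the compounds. With rimonabant it was 0.21 (SE 0.07, adjusted p = 0.0236), a call that was lost in the fit on 8 libraries (adjusted p = 0.0610) and without any single vehicle library or rimonabant replicate 1.

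S100A16 (chr1:153606886-153613145, minus strand), a widely expressed member of the family, measured 95.2, 92.6 and 97.3 FPKM in vehicle, 106.4, 87.6 and 93.4 with rimonabant and 121.2, 118.3 and 141.3 with TXX-1-10. All TXX-1-10 libraries lay above all others, and the rimonabant libraries lay on both sides of vehicle. Its log2 fold change was 0.42 (SE 0.08, adjusted p = 0.00112) with TXX-1-10, 0.01 (95% interval -0.18 to 0.20, adjusted p = 0.927) with rimonabant and 0.41 (adjusted p = 0.00172) between the compounds.

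S100A6, or calcyclin, which binds ANXA2, ANXA11 and the calcyclin-binding protein, had the same pattern. It measured 660.3, 633.3 and 608.1 FPKM in vehicle, 706.6, 557.1 and 583.0 with rimonabant and 756.5, 727.0 and 919.1 with TXX-1-10. All TXX-1-10 libraries were the highest, and rimonabant again spanned vehicle. The log2 fold change was 0.34 (SE 0.11, adjusted p = 0.0153) with TXX-1-10, -0.04 (95% interval -0.28 to 0.20, adjusted p = 0.772) with rimonabant and 0.38 (adjusted p = 0.0102) between the compounds. Without vehicle replicate 3 the adjusted p for TXX-1-10 was 0.0569, and without both length-departing libraries the rimonabant value was -0.15 (adjusted p = 0.00185).

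S100A11, the partner of ANXA1 and a component of membrane repair, measured 380.8, 361.6 and 341.7 FPKM in vehicle, 469.5, 384.7 and 410.1 with rimonabant and 449.1, 417.4 and 522.2 with TXX-1-10. Both treated groups lay above vehicle and overlapped each other. Its values on the log2 scale were 0.36 (SE 0.09, adjusted p = 0.00616) with TXX-1-10, 0.22 (95% interval 0.01 to 0.43, adjusted p = 0.0780) with rimonabant and 0.14 (95% interval -0.08 to 0.35, adjusted p = 0.231) between the compounds. The latter comparisons passed in 9 and 7 of the 22 alternatives. Among these were TMM (adjusted p = 0.0444 and 0.0417) and DESeq2 (adjusted p = 0.013 and 0.0146). They also passed once the trend with gene length was removed, at 0.26 (adjusted p = 0.000278) and 0.25 (adjusted p = 0.000214), and without both length-departing libraries, at 0.14 (adjusted p = 0.0126) and 0.12 (adjusted p = 0.0297).

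ANXA3, an annexin best known from neutrophils, was lowest with rimonabant. It measured 13.7, 14.2 and 12.6 FPKM in vehicle, 9.09, 8.55 and 9.29 with rimonabant and 10.8, 10.4 and 12.7 with TXX-1-10. Rimonabant was below both other groups, whereas TXX-1-10 replicate 3 reached the lowest vehicle library. It changed by log2 -0.59 (SE 0.08, adjusted p = 0.000277) with rimonabant, -0.26 (SE 0.08, adjusted p = 0.0137) with TXX-1-10 and 0.33 (95% interval 0.15 to 0.51, adjusted p = 0.00515) for TXX-1-10 against rimonabant. The TXX-1-10 call was lost with TMM (adjusted p = 0.0737) and with DESeq2 (0.0531), and without vehicle replicate 2, TXX-1-10 replicate 1 or TXX-1-10 replicate 2.

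ANXA1, the glucocorticoid-induced annexin that restrains phospholipase A2 and signals through formyl peptide receptors, measured 101.1, 99.2 and 97.0 FPKM in vehicle, 95.5, 86.9 and 84.0 with rimonabant and 102.7, 98.4 and 116.3 with TXX-1-10. TXX-1-10 overlapped vehicle and rimonabant lay below both. Neither compound passed the test against vehicle, with log2 fold changes of 0.09 (95% interval -0.06 to 0.25, adjusted p = 0.253) and -0.16 (95% interval -0.32 to 0.00, adjusted p = 0.0925), and TXX-1-10 was above rimonabant by 0.25 (adjusted p = 0.0106). The TXX-1-10 value passed in 5 of the 22 alternatives, among them TMM (0.19, adjusted p = 0.0168) and DESeq2 (0.19, adjusted p = 0.00251). The rimonabant value passed in 8 of the 22 alternatives, among them DESeq2 (-0.15, adjusted p = 0.0344), the length correction (-0.16, adjusted p = 0.0100), the 8 libraries (-0.21, adjusted p = 0.0268) and the fit without both length-departing libraries (-0.21, adjusted p = 3.19e-05).

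S100A2, an epithelial S100 gene induced by p53, was the rarest of the set. It had 136 and 102 counts in vehicle replicates 1 and 3, 82 and 80 in rimonabant replicates 2 and 3, and 132, 103 and 125 with TXX-1-10, or 5.08 and 3.78, 2.78 and 2.76, and 4.37, 3.57 and 4.33 FPKM. Rimonabant was below both other groups, and TXX-1-10 overlapped vehicle. In a fit on the 7 libraries that list it, a choice made after the lists had been seen, the log2 fold change was -0.68 (SE 0.19, adjusted p = 0.0167) with rimonabant, 0.56 (adjusted p = 0.0166) for TXX-1-10 against rimonabant and -0.11 (95% interval -0.47 to 0.25, adjusted p = 0.557) with TXX-1-10. Among the 11200 genes of that fit, 35% passed for rimonabant, 55.3% between the compounds and 68.5% for TXX-1-10. The rimonabant call was lost without vehicle replicate 1 (-0.45, adjusted p = 0.156), rimonabant replicate 2 (adjusted p = 0.0811) or rimonabant replicate 3 (adjusted p = 0.0840).

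For rimonabant as a whole, 1 of the 9 testable genes was higher (ANXA5) and 4 were lower (ANXA2, ANXA3, ANXA6 and S100A10), where 23.7% of all genes were higher, 25.2% lower and 1.13% passed the 2-fold threshold. The median log2 fold change was -0.16 over the 9 genes and -0.02 over all. Without both length-departing libraries 8 of the 9 passed, and without vehicle replicate 1 only 3 did. The share of all genes called in those fits is not given, so these counts are not read as a result about the 9 genes. Both comparisons with vehicle share the same 3 vehicle libraries, so the values of the compounds are given side by side and their likeness is not used as a result.

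Between the compounds, 5 of the 9 genes were higher with TXX-1-10 than with rimonabant (ANXA1, ANXA3, ANXA5, S100A6 and S100A16) and 3 were lower (ANXA2, ANXA6 and S100A10), against 25.1% and 39.4% of all genes, and none reached 2-fold, as 5.93% of genes did. With TMM the calls over all genes went from 1065 higher and 1667 lower to 1381 and 1349, and those of the 9 genes to 6 and 2. Summed over the 5 annexins, the level was 523.6 to 540.2 FPKM in vehicle, 465.0 to 518.0 with rimonabant and 486.4 to 573.4 with TXX-1-10. The 4 S100 genes summed to 1206 to 1313, 1145 to 1430 and 1350 to 1693 FPKM. For the annexins, only the length-departing TXX-1-10 replicate 3 (573.4 FPKM) lay above vehicle. The other TXX-1-10 libraries, at 505.3 and 486.4 FPKM, lay below every vehicle library. In that group ANXA2 and ANXA6 were lower than in vehicle and ANXA5 was higher.

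**Figure D4:**
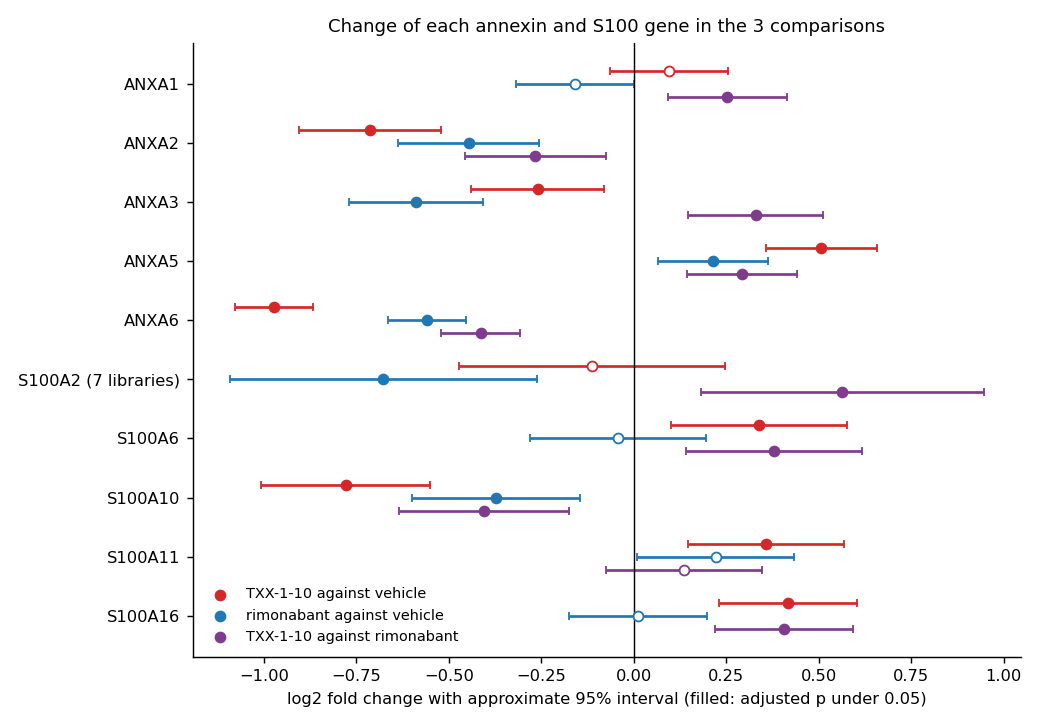
Log2 fold change of each gene in the 3 comparisons with its approximate 95% interval, filled where the adjusted p was under 0.05 (S100A2 from the fit on 7 libraries). ANXA6, S100A10 and ANXA2 have the lowest values with TXX-1-10 (-0.97, -0.78 and -0.71), and ANXA5 the highest (0.51).

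The 5 S100 genes lie within 1.63 Mb on chromosome 1 (chr1:151982915-153613145), where many S100 genes are clustered, and all are on the minus strand. Of the 19 genes listed there, the 4 that could be tested in all libraries were S100 genes of the set. With TXX-1-10, S100A10 fell while S100A11, S100A6 and S100A16 rose, so genes of this stretch moved in both directions. Of these only S100A11 lies near S100A10, and S100A6 and S100A16 are at the far end of the stretch. The annexin genes are on chromosomes 9 (ANXA1), 15 (ANXA2), 4 (ANXA3 and ANXA5) and 5 (ANXA6).

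The letters before the start sites were compared with RefSeq promoter windows (GRCh38.p14, 250 bases, both strands, matches allowed to overlap). The 10 genes have 13 such windows. The AP-1 motif TGANTCA was in 2 of them (ANXA2 and S100A2) and in 6.57% of 35116 promoters, the TATA box TATAAA in 2 (ANXA1 and ANXA2) and in 10.7%, and the GC box GGGCGG in 7 and in 42.6%. The CCAAT box CCAAT was in 3 and in 32% of promoters, the TEAD motif CATTCC in 1 (S100A16) and in 11.9%, and the cyclic AMP element TGACGTCA in none of the 13 and in 1.65%. The stretch of the window outside every annotated exon is printed for a gene that fell with both compounds (ANXA2), the gene that fell with rimonabant in the 7-library fit (S100A2) and genes that rose with TXX-1-10 (S100A11 and S100A16), with all motif matches in capitals. ANXA2 is chr15:60398044-60398236, S100A2 is chr1:153565866-153566094, S100A11 is chr1:152037036-152037254 and S100A16 is chr1:153613146-153613387, each on the minus strand and written 5′ to 3′.

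ANXA2: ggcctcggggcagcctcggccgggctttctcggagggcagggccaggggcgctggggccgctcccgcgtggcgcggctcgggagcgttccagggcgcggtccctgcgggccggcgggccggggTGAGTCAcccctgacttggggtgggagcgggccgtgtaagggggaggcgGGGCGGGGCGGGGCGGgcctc
S100A2: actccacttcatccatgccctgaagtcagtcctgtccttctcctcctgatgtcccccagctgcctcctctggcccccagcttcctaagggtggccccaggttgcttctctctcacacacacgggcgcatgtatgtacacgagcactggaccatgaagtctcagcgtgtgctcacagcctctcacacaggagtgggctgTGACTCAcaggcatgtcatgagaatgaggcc
S100A11: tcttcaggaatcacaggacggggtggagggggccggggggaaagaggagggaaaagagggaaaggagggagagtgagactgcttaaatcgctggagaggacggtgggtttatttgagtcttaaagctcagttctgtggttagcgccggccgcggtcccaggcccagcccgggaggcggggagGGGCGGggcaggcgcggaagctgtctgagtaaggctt
S100A16: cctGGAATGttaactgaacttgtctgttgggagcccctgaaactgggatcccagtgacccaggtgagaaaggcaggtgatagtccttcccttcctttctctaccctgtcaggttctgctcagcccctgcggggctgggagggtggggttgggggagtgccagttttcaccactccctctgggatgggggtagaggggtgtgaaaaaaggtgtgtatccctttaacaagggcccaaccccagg

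In ANXA2 the first capitals are an AP-1 match and the run near the end holds 3 overlapping GC boxes. The TATA box counted for ANXA2 lies in the part of its window inside an annotated exon, which is not printed. S100A2 holds an AP-1 match, S100A11 a GC box and S100A16 a TEAD match on the opposite strand. S100A2 and S100A16 each have a further window that is not shown. That of S100A2 holds no match, and that of S100A16 holds a GC box and CCAAT boxes but no TEAD match. Annotated exons cover the whole windows of ANXA3, S100A6 and S100A10 and the further window of S100A2. ANXA2 and S100A11 are rich in G and C, at 81.3% and 62.1% of the bases shown, against 58.1% and 57.0% for S100A2 and S100A16. A match is a string of letters in the window, and no binding was measured.

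By likeness over the 9 libraries, the genes whose log2(FPKM + 1) followed ANXA6 most closely were MYL9, a myosin light chain (Pearson's r = 0.998), CAV1, the coat protein of caveolae (0.998), and CDC20, an activator of the anaphase-promoting complex (0.997). For S100A10 they were MYL6, another myosin light chain (0.996), TOMM20, a mitochondrial import receptor (0.996), and MRPL3, a mitochondrial ribosomal protein (0.995). The 9 points are 3 treatment groups of 3 libraries each, so these values describe shared steps between groups. MYL9, CAV1 and CDC20 fell further than ANXA6, with log2 fold changes of -2.49, -2.70 and -2.34 under TXX-1-10.

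The rest of the annexin family was sparser. Of 8 other annexins, 7 were listed for at least 1 library and 2 could be tested in all 9. ANXA7 rose with both compounds, by log2 0.31 (adjusted p = 0.00155) with TXX-1-10 and 0.22 (adjusted p = 0.0198) with rimonabant. It measured 37.5 to 40.9 FPKM in vehicle, 45.8 to 52.5 with TXX-1-10 and 43.5 to 48.5 with rimonabant. ANXA11, the other partner of S100A6, fell with both, by -0.43 (adjusted p = 0.000250) and -0.25 (adjusted p = 0.0132). ANXA4 was tested on 8 libraries and measured 2.51, 2.48 and 2.69 FPKM in vehicle, 3.11 and 3.34 with rimonabant and 4.74, 4.48 and 5.37 with TXX-1-10, with no overlap. Its log2 fold change was 0.93 (adjusted p = 3.08e-07) with TXX-1-10 and 0.33 (adjusted p = 0.00858) with rimonabant, in a fit where 75.3% and 46.5% of 9369 genes passed and 60.6% passed between the compounds. ANXA9, tested on 7 libraries, rose by 0.51 (adjusted p = 0.0277) and 0.79 (adjusted p = 0.00889). ANXA8, ANXA8L1 and ANXA10 had at most 23 counts in any library that listed them.

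Of 15 other S100 genes 8 were listed and none in all 9 libraries. S100A4, the metastasis-associated S100 protein, had 130 and 102 counts in vehicle, 32 and 56 with rimonabant and 30, 29 and 50 with TXX-1-10. It was lower in every treated library, with log2 fold changes of -1.52 (SE 0.29, adjusted p = 0.00224) and -1.79 (SE 0.26, adjusted p = 9.30e-05) on 7 libraries. S100A3, whose gene lies inside the span of S100A4 so that their reads may be hard to separate, fell by -0.96 (adjusted p = 0.00858) and -0.60 (adjusted p = 0.0204). S100A13, which takes part in the release of growth factors without a signal peptide, went the other way. It had 402, 412 and 396 counts in vehicle, 626 and 567 with rimonabant and 854, 807 and 1042 with TXX-1-10, with some reads uncertain because the gene overlaps S100A1. Its log2 fold change was 0.44 (adjusted p = 0.00639) and 1.04 (SE 0.10, adjusted p = 9.47e-07) on 8 libraries. S100A1, S100A5, S100A14, S100P and S100Z had at most 50 counts, and S100A7, S100A7A, S100A8, S100A9, S100A12, S100B and S100G were not in any list as far as it goes.

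Of 5 genes chosen around plasminogen and its activation at the cell surface, where the ANXA2 tetramer acts, 4 were listed and tested. With each compound 2 were higher and 2 lower, where 30.5% and 43.8% of all genes were higher and lower with TXX-1-10 and 23.7% and 25.2% with rimonabant. PLAT, tissue plasminogen activator, measured 24.1, 24.9 and 24.3 FPKM in vehicle, 18.9, 17.8 and 17.2 with rimonabant and 10.6, 10.4 and 10.9 with TXX-1-10, a log2 fold change of -0.44 (adjusted p = 5.55e-05) and -1.20 (adjusted p = 9.75e-09). PLAU, urokinase, measured 26.2, 25.0 and 26.2, then 23.3, 20.7 and 21.4, then 11.5, 10.9 and 13.3 FPKM, a log2 fold change of -0.25 (adjusted p = 0.0214) and -1.12 (adjusted p = 4.73e-07). Both activators were therefore lower by more than 2-fold with TXX-1-10, without overlap. PLAUR, the urokinase receptor, rose by 0.85 (adjusted p = 1.86e-05) with rimonabant and 0.79 (adjusted p = 4.96e-06) with TXX-1-10, and the protease gene CTSB rose by 0.31 (adjusted p = 0.00203) and 0.78 (adjusted p = 1.01e-06).

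Of 20 genes of membrane repair and its scaffolds, 16 were tested in all libraries. With TXX-1-10 7 were higher, 4 lower and 5 did not pass, against 30.5% higher and 43.8% lower of all genes. With rimonabant the numbers were 3, 3 and 10, against 23.7% and 25.2%. DYSF, dysferlin, the calcium sensor of membrane patching, was tested on 8 libraries at 2.90, 3.04 and 3.03 FPKM in vehicle, 5.31 and 5.34 with rimonabant and 12.32, 12.01 and 10.43 with TXX-1-10. It rose by log2 0.83 (adjusted p = 1.09e-05) and 1.96 (SE 0.07, adjusted p = 2.12e-10), whereas the related ferlin gene MYOF fell by -0.73 (adjusted p = 0.000760) and -0.77 (adjusted p = 0.000204). AHNAK, the giant scaffold recruited to the membrane by ANXA2 and S100A10, measured 110.4, 111.5 and 109.1 FPKM in vehicle, 53.1, 96.3 and 79.3 with rimonabant and 92.4, 98.1 and 56.7 with TXX-1-10. The lowest value of each treated group was in the length-departing library, the gene is 19465 bases long, and the changes of -0.53 (adjusted p = 0.0766) and -0.42 (adjusted p = 0.117) did not pass. Its paralog AHNAK2 measured 7.27, 7.46 and 7.52, then 5.79, 11.4 and 9.36, then 30.3, 32.4 and 17.7 FPKM. This was a rise of 1.85 (SE 0.26, adjusted p = 8.78e-05) with TXX-1-10 and a value of 0.25 (adjusted p = 0.432) with rimonabant. AHNAK2 is 18771 bases long, and its lowest value in each treated group was also in the length-departing library. The remaining rimonabant libraries, at 11.4 and 9.36 FPKM, lay above every vehicle library.

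Of the receptors and binding proteins, 3 of 9 were tested in all libraries. None of these passed with TXX-1-10, where 30.5% of all genes were higher and 43.8% lower. With rimonabant SUGT1 was higher (0.36, adjusted p = 0.000382), where 23.7% of all genes were higher and 25.2% lower. AGER, the receptor RAGE that binds several S100 proteins, measured 2.03 and 1.62 FPKM in vehicle, 2.15 and 1.74 with rimonabant and 3.02, 3.22 and 3.64 with TXX-1-10, from 58 to 139 counts. All TXX-1-10 libraries were above the others, with a log2 fold change of 0.85 (SE 0.17, adjusted p = 0.000989) against 0.09 (adjusted p = 0.744) with rimonabant on 7 libraries. S100PBP, the S100P-binding protein, was higher with TXX-1-10 by 0.24 (adjusted p = 0.00811) on 8 libraries and had a value of 0.15 (adjusted p = 0.140) with rimonabant, and TLR4 passed with neither compound (-0.11 and 0.02, adjusted p = 0.345 and 0.914). CACYBP, the calcyclin-binding protein, had log2 values of -0.12 (adjusted p = 0.240) with TXX-1-10 and 0.22 (adjusted p = 0.0590) with rimonabant. FPR1, a receptor of ANXA1, had 18 and 15 counts in the vehicle libraries that listed it, 5 with rimonabant and 2 and 1 with TXX-1-10, too few for a test in all groups.

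In the prostaglandin pathway that ANXA1 restrains at its first step, 2 of 7 genes were tested in all libraries, PTGES2 and PTGES3. Both were lower with TXX-1-10, as were 43.8% of all genes, and PTGES2 was lower with rimonabant, as were 25.2%. PLA2G4A, cytosolic phospholipase A2, had log2 values of -0.10 (adjusted p = 0.628) and -0.32 (adjusted p = 0.247) on 7 libraries. PTGS2, the inducible cyclooxygenase, was tested on 8 libraries and measured 0.589, 0.583 and 0.639 FPKM in vehicle, 1.21 and 1.21 with rimonabant and 14.3, 13.8 and 13.4 with TXX-1-10. It rose by log2 1.001 (SE 0.12, adjusted p = 4.31e-05) and 4.51 (SE 0.08, adjusted p = 6.03e-12), with every library of a group close to the others. PTGES, the inducible prostaglandin E synthase, fell with both compounds, by -1.18 (adjusted p = 0.000107) and -1.29 (adjusted p = 3.44e-06).

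Among 17 other EF-hand genes 12 were tested in all libraries. With TXX-1-10 2 were higher, 6 lower and 4 did not pass, near the 30.5% higher and 43.8% lower of all genes. With rimonabant the numbers were 2, 2 and 8, against 23.7% and 25.2%. The median log2 fold change of the 12 genes with TXX-1-10 was -0.12, near the -0.09 of all genes. For rimonabant it was -0.017 over the 12 genes and -0.020 over all.

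**Figure D5:**
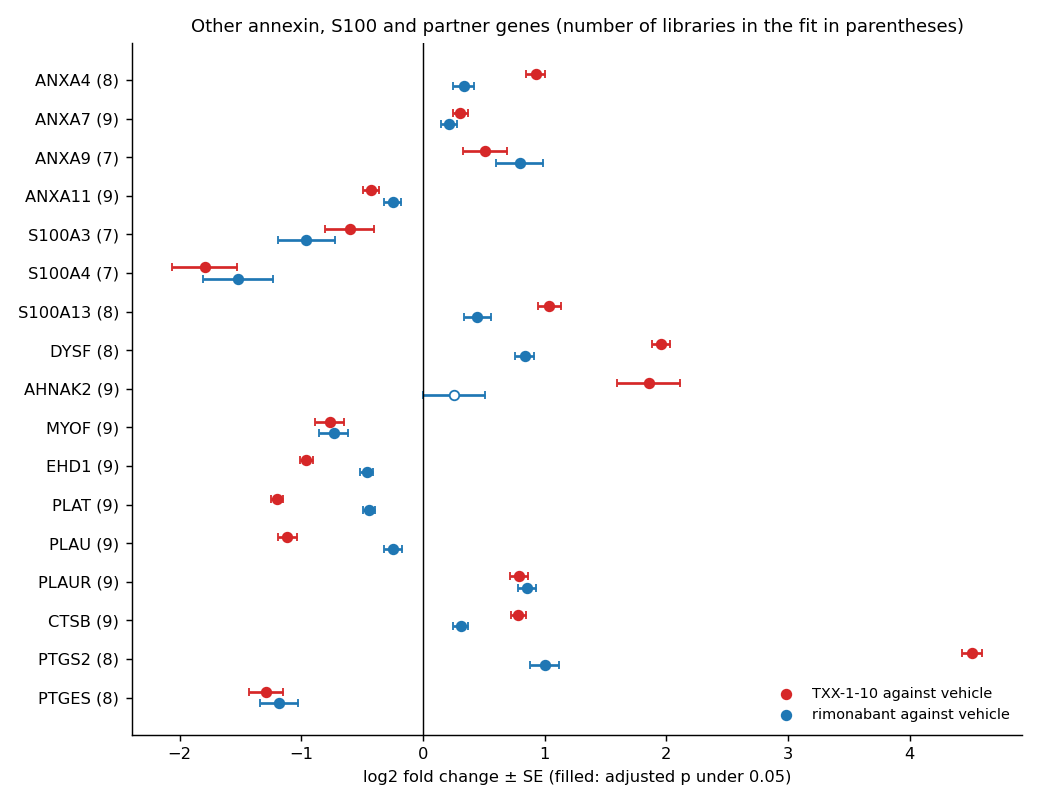
Log2 fold change ± SE against vehicle of other annexin, S100 and partner genes with TXX-1-10 and rimonabant, with the number of libraries in the fit after each name and open points where the adjusted p was 0.05 or more. PTGS2 is far to the right with TXX-1-10 at 4.51, S100A4 is lowest with both compounds, and PLAT and PLAU are lower with TXX-1-10 than with rimonabant.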

How the data were processed

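RNA from MDA-MB-231 cells was poly(A)-selected and sequenced in 9 libraries. According to the submitters' processing notes, the authors used HISAT2 2.0.5 and featureCounts 1.5.0-p3, and they deposited a count and an FPKM value per gene and library. Gene coordinates matched GENCODE 29 (GRCh38) for 27612 of 27615 genes. Each library's total was recovered from count, FPKM and gene length, which in some libraries was below the sum of the listed counts (17078370 against 17492638 in vehicle replicate 1). Genes listed for all libraries and averaging 1 FPKM or more were fitted on their counts with edgeR 4.0.16 (R 4.3.3) in 1 model, scaled by that total. P-values were adjusted by the Benjamini-Hochberg method over 4236 genes, and SE and intervals were derived from the F statistic. Alternatives were TMM, DESeq2 1.42.0, limma 3.58.1 on log2(FPKM + 1) and log2(FPKM + 0.1), filters of 0 and 5 FPKM, fits on 8 and 7 libraries, a correction for gene length (lowess, span 0.3), a replicate block, only the 2 groups compared, and each library left out. The scripts were tested on simulated data. No replicates were near duplicates. The genes and gene lists were chosen with earlier results of these data known. The text names the 10 genes, the other listed annexin and S100 genes, partner genes past both thresholds, AHNAK, CACYBP, PLA2G4A, and the 3 genes most like ANXA6 and S100A10. PLAUR, CTSB, MYOF, SUGT1, FPR1, AGER, S100PBP, TLR4, PTGES2 and PTGES3 were named after their values were seen. Promoter sequences are from RefSeq (GRCh38.p14), and all 10 symbols matched. Some results are not reported here.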

Additional observations from a re-analysis of the deposited data

How the results depend on the processing

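The calls of ANXA2, ANXA5, ANXA6, S100A10, S100A11 and S100A16 with TXX-1-10 and those of ANXA2, ANXA3 and ANXA6 with rimonabant kept their direction and stayed past the threshold in each of the 22 alternatives. Leaving out 1 library at a time gave 7 to 8 of the 9 genes with TXX-1-10, 3 to 7 with rimonabant and 7 to 8 between the compounds, the lowest rimonabant count without vehicle replicate 1. Leaving out both length-departing libraries gave 8 genes with rimonabant. As the share of all genes called in those fits is not given, the counts show only that calls depended on the libraries used. In the fit on 8 libraries, which tests 9369 genes in place of 4236, more genes passed, 7051 with TXX-1-10 (1187 at 2-fold), 4360 with rimonabant (140 at 2-fold) and 5673 between the compounds (601 at 2-fold). Values that were near 0 changed sign: S100A16 with rimonabant was -0.0708 on the log2 scale in the fit on 8 libraries, -0.07084 without both length-departing libraries, -0.0077 without vehicle replicate 2 and between -0.0708 and 0.0714 with any 1 library left out. S100A6 with rimonabant ranged from -0.153 (without rimonabant replicate 1) to 0.0245 (without rimonabant replicate 2), and S100A2 with TXX-1-10 was 0.12 without vehicle replicate 1. The cause was not tested. Over all single-gene values, 563 kept their direction and call, 30 gained a call, 25 lost it and 6 changed sign.

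Whether replicate numbers pair the samples was not settled. Deviations of same-numbered libraries correlated at -0.0874 to 0.0441 with vehicle and at -0.789, 0.810 and -0.599 between rimonabant and TXX-1-10. The length-departing libraries carry different numbers, and each deviation is from a group mean that includes them, so these values cannot decide it. A replicate block gave 3078, 1894 and 2621 genes with an adjusted p under 0.05 for TXX-1-10, rimonabant and the difference between the compounds, against 3151, 2071 and 2732, and changed no call of the 9 genes. S100A2 was no longer called with the block (adjusted p = 0.106 with rimonabant and 0.0510 between the compounds). The precision for S100A2 and S100A4 is limited by their 29 to 136 counts per library, whereas the other 9 genes have 814 counts or more.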
